A study of Homo sapiens with 24 samples.

Results

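The calcium homeostasis modulators (CALHM) are a family of 6 human genes, CALHM1 to CALHM6, which were found in the deposited counts by their symbols, 6 of 60563 named genes. The family was selected on CALHM5, with its rise against control and its difference between the isoforms in these libraries known. The values of each line against control, and those of CALHM5 between the isoforms, are therefore given as a description, without p-values. All cells were H1299, a human non-small cell lung cancer line described by the study as p53 null. Control cells carried the vector only, and the other 5 lines carried a plasmid for overexpression of a Δ133p53 isoform, a p53 protein without the first part of the full-length protein: Δ133p53α in the lines Δ133p53α1, Δ133p53α2 and Δ133p53α8, and Δ133p53β in Δ133p53β5 and Δ133p53β10. Each of the 5 lines was 1 clone, so that a property of the clone and the effect of its isoform cannot be told apart. Each of the 6 groups had 4 libraries of poly(A) RNA, 24 in all. Nothing in the labels says how the 4 libraries of a line were made, so the p-values below measure the spread between these libraries, which may be technical. No dose or time point was given in the labels.

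CALHM proteins form large pores in the cell membrane. CALHM1 opens with voltage and low extracellular calcium, and together with CALHM3 it releases ATP from taste cells as a transmitter. CALHM2 has been studied as an ATP release channel of the brain, CALHM6 is known from macrophages and other immune cells and is induced by interferon, and CALHM4 and CALHM5 are best known from the placenta, where their pores have been solved as structures but their opening stimulus is not known. Released ATP is sensed by purinergic receptors and broken down at the cell surface by ectonucleotidases.

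The genes lie in 2 clusters. In GRCh38, CALHM6 (ENSG00000188820) is at chr6:116461370-116463771, CALHM5 (ENSG00000178033) at chr6:116511639-116524788 and CALHM4 (ENSG00000164451) at chr6:116529013-116561127, all on the plus strand. CALHM2 (ENSG00000138172) is at chr10:103446786-103452402, CALHM1 (ENSG00000185933) at chr10:103453240-103458900 and CALHM3 (ENSG00000183128) at chr10:103472804-103479240, all on the minus strand. The promoters of the 3 genes that were expressed well enough to test are shown from RefSeq (GRCh38.p14), because CALHM5 and CALHM4 are adjacent and were both called increased in 3 lines, while CALHM2 was called in none. Each runs 5′ to 3′ from 250 bases before to 50 bases after an annotated start, and capitals mark matches to the CCAAT box (CCAAT), the GC box (GGGCGG) and the E-box (CACGTG) on either strand.
CALHM5, chr6:116511389-116511688, plus strand: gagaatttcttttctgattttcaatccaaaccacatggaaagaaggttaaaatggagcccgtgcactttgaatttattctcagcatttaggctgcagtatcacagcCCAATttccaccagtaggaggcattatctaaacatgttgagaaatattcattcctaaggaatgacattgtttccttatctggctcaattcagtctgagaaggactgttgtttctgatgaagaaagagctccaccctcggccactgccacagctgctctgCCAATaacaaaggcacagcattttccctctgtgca
CALHM4 first start, chr6:116528793-116529092, plus strand: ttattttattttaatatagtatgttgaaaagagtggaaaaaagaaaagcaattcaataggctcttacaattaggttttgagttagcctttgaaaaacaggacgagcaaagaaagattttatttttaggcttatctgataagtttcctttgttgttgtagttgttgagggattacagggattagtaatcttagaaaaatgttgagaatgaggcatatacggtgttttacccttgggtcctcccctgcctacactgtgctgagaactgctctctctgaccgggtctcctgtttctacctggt
CALHM4 second start, chr6:116553501-116553800, plus strand: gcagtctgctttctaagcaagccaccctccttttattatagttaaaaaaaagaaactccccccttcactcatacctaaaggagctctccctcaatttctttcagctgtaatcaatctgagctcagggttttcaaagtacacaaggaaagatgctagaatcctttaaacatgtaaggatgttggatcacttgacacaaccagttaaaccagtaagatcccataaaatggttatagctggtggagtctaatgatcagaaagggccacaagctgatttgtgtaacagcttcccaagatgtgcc
CALHM2, chr10:103452321-103452620, minus strand: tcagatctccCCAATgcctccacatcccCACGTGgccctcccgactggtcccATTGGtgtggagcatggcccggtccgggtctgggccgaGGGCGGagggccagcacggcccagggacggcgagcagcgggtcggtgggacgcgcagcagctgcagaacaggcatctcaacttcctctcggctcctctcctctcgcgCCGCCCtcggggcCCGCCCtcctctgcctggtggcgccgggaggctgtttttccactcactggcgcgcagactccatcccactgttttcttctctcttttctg

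The promoters of the chromosome 6 genes were poor in CpG. The CALHM5 window held 2 CpG and the CALHM4 windows held 3 and 0, compared with 23 in CALHM2 and a median of 14 over 35116 promoters. CALHM5 had 2 matches to the CCAAT box, at positions -144 and 16 from its start, and 34.6% of all promoters held that motif. Neither CALHM4 window matched any of the 7 motifs searched. CALHM2 had 6 matches, 2 to the CCAAT box, 3 to the GC box (found in 45.0% of promoters) and 1 to the E-box (7.26%). The other motifs searched had no match in these 4 windows: the TATA box (TATAAA, 11.5% of promoters), the AP-1 site (TGANTCA, 7.71%), the antioxidant response element (TGACNNNGC, 13.3%) and the p53 half-site (6.63%). These matches describe letters only.

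The total count of a library ranged from 21531599 to 25381731. Expression of each gene was taken relative to its mean over all libraries. This relative expression rose with gene length (exon bases) in a set of 12 libraries and fell in a set of 12. Both sets were found in every line, with 3 control libraries in the first and 1 in the second. Δ133p53α2 and Δ133p53α8 had the same split as control, while Δ133p53α1, Δ133p53β5 and Δ133p53β10 had 1 library in the first set and 3 in the second. The sets were thus not balanced between control and these 3 lines, nor between the isoforms, and all differences below carry this limit. Below, the sets are named by this trend, which is relative to the average library. The titles assigned 3 libraries to Δ133p53β5 and 5 to Δ133p53β10, whereas the count table named 4 of each; the library in doubt was counted as replicate 4 of Δ133p53β5. KRT8 and KRT18, keratins of simple epithelia, were abundant, while the epithelial genes EPCAM, KRT19 and CDH1 had at most 5 reads in any library and the lung marker NKX2-1 at most 14. The white blood cell genes PTPRC and CD3E had 0 reads, and none of 7 trophoblast markers exceeded 5 reads in any library.

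CALHM5 was the family member with the largest difference from control. Its expression in CPM (counts of a gene relative to all counts of the library, scaled by TMM factors) was 0.653, 0.808, 0.338 and 0.55 in the control libraries, which was 17, 19, 9 and 13 reads. In Δ133p53α1 it was 5.82, 4.72, 4.41 and 4.19 CPM, and in Δ133p53α2 it was 1.83, 3.09, 2.18 and 3.84 CPM. All 8 of these libraries lay above the highest control library. In Δ133p53α8 the values were 3.95, 2.64, 3.88 and 4.33 CPM. In Δ133p53β5 they were 6.01, 7.36, 8.51 and 5.8 CPM, and in Δ133p53β10 6.87, 5.71, 4.95 and 6.56 CPM. No library of any of the 5 lines overlapped with control, and the highest library of all was from Δ133p53β5. The share of all tested genes that separated from control in this way was not counted, so nothing is read from it.

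The mean level of CALHM5 was 0.587 ± 0.197 CPM in control (SD, n = 4), and in the lines it was lowest in Δ133p53α2 at 2.73 ± 0.909 and highest in Δ133p53β5 at 6.92 ± 1.27 CPM. Between these were Δ133p53α8 at 3.7 ± 0.733, Δ133p53α1 at 4.79 ± 0.723 and Δ133p53β10 at 6.02 ± 0.87 CPM. The log2 fold change against control was largest in Δ133p53β5 at 3.55 (SE 0.288) and Δ133p53β10 at 3.35 (SE 0.287), followed by Δ133p53α1 at 3.02 (SE 0.284), Δ133p53α8 at 2.65 (SE 0.282) and Δ133p53α2 at 2.22 (SE 0.28). Calls required a log2 fold change of 1.5 or more in size together with an adjusted p below 0.05, and CALHM5 was called increased in all 5 lines. The share of the 17990 tested genes called increased was 1.38% for Δ133p53β5, 1.9% for Δ133p53β10, 1.05% for Δ133p53α1, 0.967% for Δ133p53α2 and 0.967% for Δ133p53α8. The family was chosen on this contrast, so nothing is read from these calls. Ranked from the largest increase, the log2 fold change of CALHM5 was between rank 51 in Δ133p53β5 and rank 117 in Δ133p53α2. Within the library set in which expression rose with gene length, the 3 control libraries had 0.338 to 0.808 CPM and the 9 libraries of the lines 2.18 to 6.87. Within the other set, the 1 control library had 0.653 CPM and the 11 libraries of the lines 1.83 to 8.51.

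**Figure D1:**
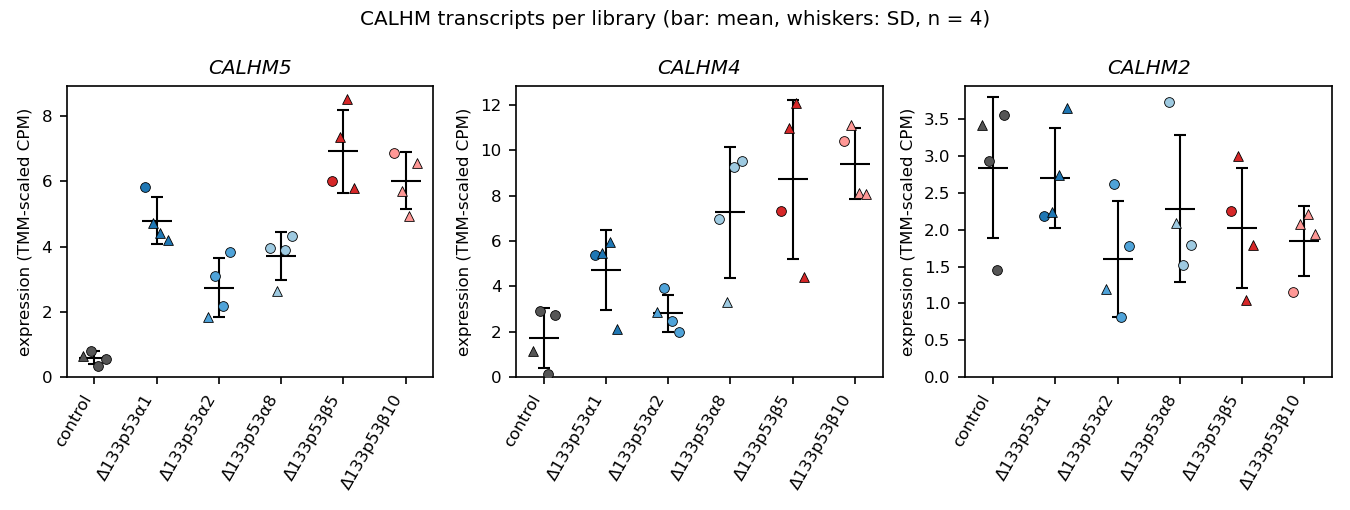
Expression of CALHM5, CALHM4 and CALHM2 in TMM-scaled CPM (vertical axis) in control and the 5 lines (horizontal axis). Each symbol is 1 library, and bars give the mean and SD of 4 libraries. Circles mark the set in which expression relative to the mean of each gene rose with gene length, and triangles the set in which it fell. For CALHM5 the control libraries, at 0.338 to 0.808 CPM, lie below every library of the lines, for CALHM4 one control library lies at 0.15 CPM, and for CALHM2 the groups overlap.

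CALHM4, which starts downstream of CALHM5 on the same strand, was higher than control in the Δ133p53β lines and Δ133p53α8. In the control libraries it had 1.15, 2.89, 0.15 and 2.75 CPM, and the third of these rested on 4 reads. In Δ133p53α8 it had 6.97, 3.29, 9.24 and 9.54 CPM, in Δ133p53β5 7.34, 11, 12.1 and 4.42 CPM, and in Δ133p53β10 10.4, 11.1, 8.1 and 8.05 CPM. All 12 libraries of these lines exceeded the highest control library. In Δ133p53α1 the values were 5.37, 5.49, 5.97 and 2.12 CPM, and in Δ133p53α2 they were 2.86, 3.91, 2.46 and 1.98 CPM. Both of these lines overlapped with control. For this gene too, the share of all tested genes without overlap was not counted.

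The mean level of CALHM4 was 1.74 ± 1.32 CPM in control (SD, n = 4). In the lines it was 9.41 ± 1.57 CPM for Δ133p53β10, 8.73 ± 3.53 for Δ133p53β5, 7.26 ± 2.88 for Δ133p53α8, 4.74 ± 1.76 for Δ133p53α1 and 2.8 ± 0.819 for Δ133p53α2. The log2 fold change against control was 2.07 (SE 0.533) in Δ133p53α8, 2.33 (SE 0.537) in Δ133p53β5 and 2.44 (SE 0.539) in Δ133p53β10, and CALHM4 was called increased in these 3 lines. In Δ133p53α1 the log2 fold change was 1.45 (SE 0.528) and in Δ133p53α2 it was 0.69 (SE 0.527), and neither was called. Without the control library of 4 reads (replicate 3), the log2 fold changes were lower, at 2.05 for Δ133p53β10, 1.95 for Δ133p53β5, 1.68 for Δ133p53α8, 1.07 for Δ133p53α1 and 0.31 for Δ133p53α2, and the same 3 lines were called. The call in Δ133p53α8 was lost when control replicate 1 or Δ133p53α8 replicate 1, 3 or 4 was left out, with log2 fold changes of 1.92, 2.09, 1.93 and 1.91, and it was lost, as was that in Δ133p53β10, when each line was fitted with control alone, although the log2 fold changes were then 2.1 in Δ133p53α8 and 2.43 in Δ133p53β10.

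CALHM2, on chromosome 10, was called in no line. The 4 control libraries had 3.42, 2.94, 1.46 and 3.56 CPM, a mean of 2.84 ± 0.956 (SD, n = 4). The means of the lines were 2.7 ± 0.678 CPM for Δ133p53α1, 2.28 ± 0.997 for Δ133p53α8, 2.03 ± 0.817 for Δ133p53β5, 1.85 ± 0.473 for Δ133p53β10 and 1.6 ± 0.782 for Δ133p53α2. The libraries of every line overlapped with control. The log2 fold change was between -0.82 (SE 0.385) in Δ133p53α2 and -0.07 (SE 0.379) in Δ133p53α1. The share of tested genes called decreased was 2.94% for Δ133p53β5, 2.71% for Δ133p53β10, 1.41% for Δ133p53α1, 1.67% for Δ133p53α2 and 1.41% for Δ133p53α8. On the opposite strand, the annotated exons of ENSG00000273485 share 605 bases with those of CALHM2, 19.47% of its exon length. The strand setting of the counting was not given in the sources used here, so reads from the 2 genes may not be fully separated, although ENSG00000273485 had 210 reads in all libraries and CALHM2 had 1189.

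The other 3 members were close to undetected. CALHM1 had 5 reads in all 24 libraries, CALHM3 had 7 and CALHM6 had 1, with at most 2 reads in any library. These 3 genes did not pass the filter on low counts and were not tested, so 3 of 6 members were tested and 2 of those were called increased in at least 1 line, beside 2.86% of all tested genes. CALHM5, on which the family was chosen, is 1 of these 2, so nothing is read from this count. A count of 0 in a library allows up to 3 reads, which is 0.118 to 0.139 CPM by library size, so the taste cell channels CALHM1 and CALHM3 and the immune cell member CALHM6 were not detectable above this level. The exons of CALHM6 share 414 bases, 34.91% of their length, with those of ENSG00000285446 on the same strand, which had 0 reads. Reads on the shared bases may not have been assigned to either gene, as the handling of such reads was not given.

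Per kilobase of exon, CALHM4 was more abundant than CALHM5 in every group (CALHM5 has 9787 exon bases and CALHM4 4190). The ratio of CALHM4 to CALHM5 per kilobase, taken on the group means, was 6.91 in control and was lower in all 5 lines, from 2.31 in Δ133p53α1 to 4.58 in Δ133p53α8. The ratio in single control libraries ranged from 1.04 to 11.7, which spans the values of all lines. Across the 20 libraries of the 5 lines, log2 CPM of CALHM5 and CALHM4 had a Pearson's r of 0.71 and a Spearman's rho of 0.71. This is a description over libraries that share their clones, and 4 libraries of each clone are not independent points.

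Expression was then compared between the Δ133p53 lines. The control libraries are not part of these differences but enter the shared estimate of the spread. The mean of the Δ133p53β lines was higher than that of the Δ133p53α lines for CALHM5, by 0.82 on the log2 scale (SE 0.161, 95% interval 0.48 to 1.16). CALHM5 was chosen with this difference known, so it carries no test here. Of the 8 Δ133p53β libraries, 5 exceeded the highest Δ133p53α library. This trait was not counted over all tested genes, and the 8 libraries are of 2 clones, so nothing is read from it. Within the set of libraries in which expression rose with gene length, the mean was 3.87 CPM in 7 Δ133p53α libraries and 6.44 in 2 Δ133p53β libraries, and within the other set it was 3.56 CPM in 5 and 6.48 in 6. The means of the 2 Δ133p53β clones were above those of the 3 Δ133p53α clones, but with 2 and 3 clones the isoform and the differences between clones cannot be told apart.

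CALHM4 was also higher in the Δ133p53β lines, by 0.98 on the log2 scale (SE 0.323, 95% interval 0.3 to 1.66), but the edgeR quasi-likelihood test did not pass the threshold after adjustment (adjusted p = 0.0834). At this threshold 5.43% of the tested genes differed between the isoforms. The outcome for CALHM4 depended on the control library with 4 reads. Without control replicate 3, the difference was 0.98 (SE 0.242) with an edgeR adjusted p of 0.0157. CALHM2 differed by -0.15 (SE 0.249, 95% interval -0.67 to 0.37, edgeR adjusted p = 0.789).

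Among the 5 lines, CALHM5 had 1.33 on the log2 scale between the highest and the lowest line, given without a test because it includes the difference between the isoforms. CALHM4 (range 1.75, adjusted p = 0.199) and CALHM2 (range 0.74, adjusted p = 0.594) did not pass in the edgeR F test. In this test 3.76% of the tested genes passed. Without control replicate 3, CALHM4 passed at an edgeR adjusted p of 0.0399.

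Clones of the same isoform were compared in 4 pairs. In none of these pairs did CALHM5, CALHM4 or CALHM2 pass the threshold over all genes in the edgeR quasi-likelihood test. For CALHM5 the difference was -0.8 between Δ133p53α2 and Δ133p53α1 (95% interval -1.34 to -0.26, edgeR adjusted p = 0.159), and no library of these 2 clones overlapped, a trait not counted over all genes. It was -0.37 between Δ133p53α8 and Δ133p53α1 (95% interval -0.91 to 0.16, edgeR adjusted p = 0.31) and 0.43 between Δ133p53α8 and Δ133p53α2 (-0.11 to 0.97, edgeR adjusted p = 0.998). Between Δ133p53β10 and Δ133p53β5 the difference was -0.2 (-0.73 to 0.33, edgeR adjusted p = 1.0). For CALHM4 the largest difference was 1.37 between Δ133p53α8 and Δ133p53α2 (0.28 to 2.46, edgeR adjusted p = 0.998). The intervals hold for single genes, are not adjusted, and include differences of more than 1 log2 unit for CALHM4 in each pair. Genes that passed made up 0.773% of those tested between Δ133p53α2 and Δ133p53α1, 0.689% between Δ133p53α8 and Δ133p53α1 and 0.15% between Δ133p53α8 and Δ133p53α2. Between Δ133p53β10 and Δ133p53β5 no gene passed in edgeR (0.0%), while limma voom called 0 and DESeq2 4. An unadjusted edgeR p under 0.05 was found for 270 of 17990 genes, fewer than that cut gives by chance alone.

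**Figure D2:**
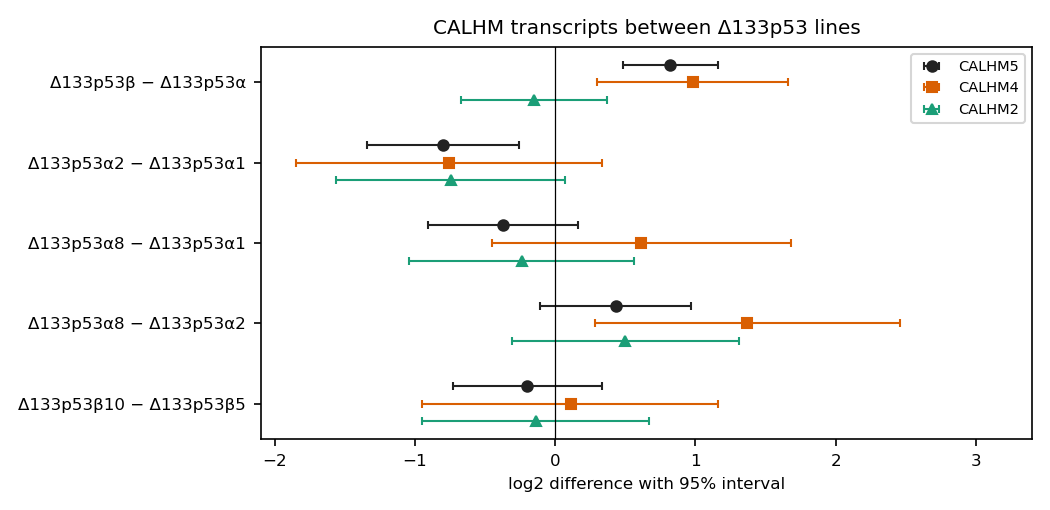
Differences in CALHM5, CALHM4 and CALHM2 between the Δ133p53 lines on the log2 scale (horizontal axis), for the mean of the Δ133p53β lines minus that of the Δ133p53α lines and for 4 pairs of clones (vertical axis). Points are the fitted differences and whiskers the unadjusted 95% intervals. The CALHM5 difference between the isoforms is 0.82 with an interval of 0.48 to 1.16, and the CALHM2 interval includes 0 in every row.

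The genes beside the chromosome 6 cluster were examined to see whether the rise was shared by the region. Within 500000 bases of the outer ends of the cluster, 26 other genes were in the table and 11 were tested. Of the 11, 0 were called in any line, beside 7.17% of all tested genes called in at least 1 line in either direction and 2.86% called increased. With 11 genes a count of 0 is near these shares, so nothing is read from it. The median log2 fold change of the 11 genes was between -0.44 in Δ133p53α1 and 0.03 in Δ133p53α8. The nearest tested genes before the cluster were CBX3P9, a pseudogene, DSE, an epimerase that acts on dermatan sulfate, and TSPYL1. The largest log2 fold change of these 3 in any line was -0.63 (SE 0.327) for DSE in Δ133p53α1, which did not pass (edgeR adjusted p = 0.216).

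The nearest tested gene after the cluster was RWDD1, 10282 bases beyond the end of CALHM4. Its log2 fold change was 0.86 (SE 0.21, edgeR adjusted p = 0.0104) in Δ133p53β5 and 0.82 (SE 0.21, edgeR adjusted p = 0.0147) in Δ133p53β10, which passed the p threshold but not the threshold on size. In Δ133p53α1, Δ133p53α2 and Δ133p53α8 it was 0.32, 0.39 and 0.32, with edgeR adjusted p of 0.31 or higher. ZUP1, a peptidase of ubiquitin chains, and KPNA5, a nuclear import receptor, were the next tested genes, and neither passed in any line.

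TRAPPC3L, which lies on the opposite strand and spans CALHM5 and part of CALHM4, was not tested because of its low counts and is named here after its values were seen. It had 1 read in the 4 control libraries together. The 4 libraries of each line together had 31 reads for Δ133p53β5, 24 for Δ133p53β10, 21 for Δ133p53α8, 19 for Δ133p53α1 and 11 for Δ133p53α2. Without the filter on low counts, TRAPPC3L was called increased in the 4 lines other than Δ133p53α2, with a log2 fold change of 4.55 (SE 0.998, edgeR adjusted p = 0.00532) in Δ133p53β5. It was also called in 21 of 24 fits with a library left out, so the count of 0 called neighbours covers only the 11 genes that passed the filter. Its exons share 43 bases with CALHM5, 0.44% of the CALHM5 exon length, and 0 bases with CALHM4. The part of reads from the opposite strand in these counts was not tested, as the counts do not give the position of a read.

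**Figure D3:**
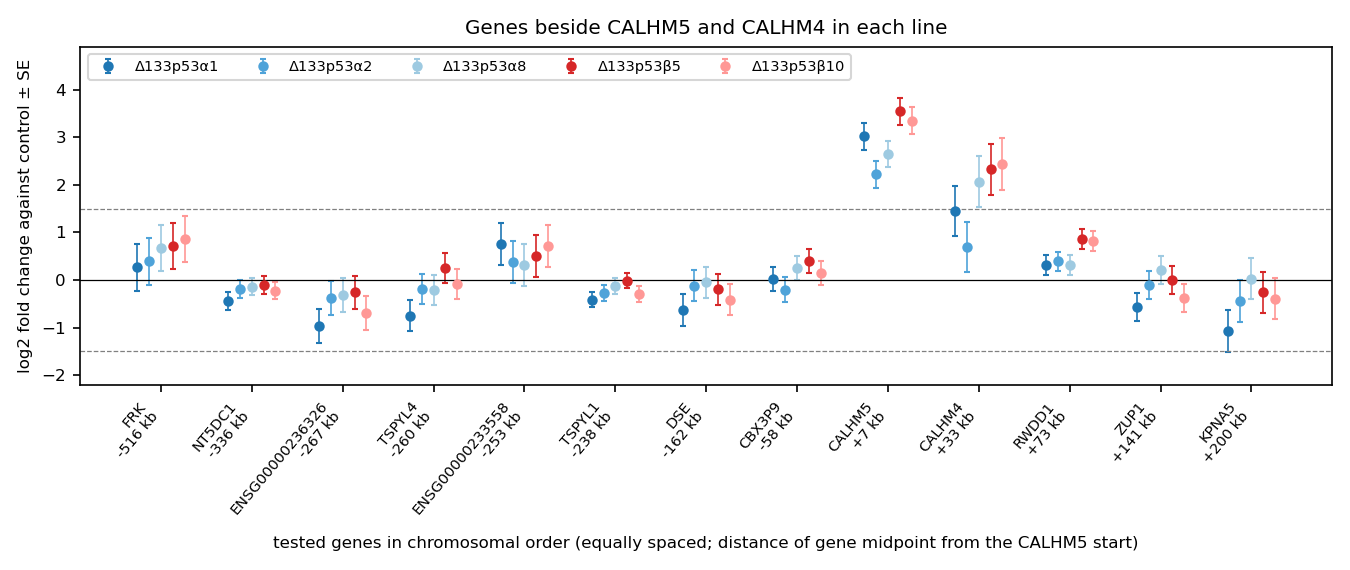
Log2 fold change against control with its SE (vertical axis) for CALHM5, CALHM4 and the 11 tested genes beside them in chromosomal order (horizontal axis, with the distance of each gene's midpoint from the start of CALHM5), in the 5 lines. Dashed lines mark a log2 fold change of 1.5 in either direction. CALHM5 and, in 3 lines, CALHM4 lie above the upper line, RWDD1 is at 0.86 and 0.82 in the Δ133p53β lines, and no other gene crosses a line.

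Beside the chromosome 10 cluster, 27 other genes were in the table and 13 were tested, and 1 was called, beside the 7.17% of all tested genes called in at least 1 line in either direction. This was SH3PXD2A, a scaffold protein of invadopodia, which decreased in Δ133p53β10 by 1.59 on the log2 scale (edgeR adjusted p = 0.0352). Its values were close to the thresholds in both Δ133p53β lines, with a log2 fold change of -1.48 in Δ133p53β5 (edgeR adjusted p = 0.0495), and its call in Δ133p53β10 was lost without control replicate 3 (log2 fold change -1.15) or without Δ133p53β10 replicate 2, 3 or 4 (-1.63, -1.59 and -1.3). With the library in doubt left out, SH3PXD2A was also called in Δ133p53β5, at -2.02 (edgeR adjusted p = 0.0133). With that library counted in Δ133p53β10, it was called in Δ133p53β5 (-2.0) but not in Δ133p53β10 (-1.31). The nearest tested genes were PDCD11, ATP5MK and TAF5 on one side and NEURL1, SH3PXD2A and STN1 on the other. PDCD11, a ribosome biogenesis factor whose annotated end is 492 bases from CALHM2, had log2 fold changes from -0.25 to 0.25, and only SH3PXD2A of these 6 genes was called. INA, a neuronal intermediate filament in the same window, is named here after its values were seen. Its log2 fold change was -1.45 (SE 0.228, edgeR adjusted p = 0.00021) in Δ133p53β5 and -1.22 (SE 0.227, edgeR adjusted p = 0.00106) in Δ133p53β10, which passed the p threshold but not the threshold on size.

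The genes with a known part in ATP release, ATP sensing and taste transduction were then listed by their function. Of 28 other genes of ATP release channels (connexins, pannexins and the LRRC8 subunits of the volume-regulated anion channel), 13 were tested, 0 were called increased and 3 were called decreased, beside 4.4% of all tested genes decreased in at least 1 line. The median log2 fold change of the 13 genes was between -0.47 in Δ133p53α1 and -0.06 in Δ133p53α8, and that of all tested genes was between -0.05 and 0.03.

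PANX2, a pannexin that forms large pores mainly in intracellular membranes, decreased in 4 of 5 lines. Its mean was 4.73 ± 0.859 CPM in control (SD, n = 4), with 94 to 137 reads per library, and 0.668 ± 0.201 in Δ133p53α2, 0.789 ± 0.391 in Δ133p53α8, 0.575 ± 0.245 in Δ133p53β5 and 0.801 ± 0.523 CPM in Δ133p53β10, with 6 to 29 reads. It decreased by 2.82 (SE 0.435, edgeR adjusted p = 0.000202) in Δ133p53α2, and the log2 fold changes were -2.58 in Δ133p53α8, -3.04 in Δ133p53β5 and -2.56 in Δ133p53β10. In Δ133p53α1 the mean was 3.04 ± 0.965 CPM and the log2 fold change was -0.64 (SE 0.396, edgeR adjusted p = 0.285). The log2 fold change of CALHM5 in this line was 3.02 (SE 0.284), given as a description, and the 2 genes were not compared by a test.

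The other channels called were 2 connexins, named here after their values were seen. GJA3, a connexin of the lens, decreased in Δ133p53β10 by 2.93 on the log2 scale (SE 0.409, edgeR adjusted p = 5.66e-05), from 1.49 ± 0.442 to 0.189 ± 0.0769 CPM (SD, n = 4). In Δ133p53β5 its log2 fold change was -1.46 (SE 0.368, edgeR adjusted p = 0.0127), just under the threshold on size. In the Δ133p53α lines it was between -0.98 in Δ133p53α2 and -0.49 in Δ133p53α8, and did not pass. Its mean was also lower in the Δ133p53β than in the Δ133p53α lines, by a log2 difference of -1.49 (SE 0.262, edgeR adjusted p = 0.000944). At this threshold 5.43% of the tested genes differed between the isoforms. The GJA3 mean was 0.536 ± 0.127 CPM in Δ133p53β5, and the lowest of the Δ133p53α lines was Δ133p53α2 at 0.746 ± 0.49 CPM. With 2 and 3 clones the isoform and the differences between clones cannot be told apart. GJA1, the most widely expressed connexin, was at 0.787 ± 0.326 CPM in control and 0.204 ± 0.125 CPM in Δ133p53α1 (SD, n = 4), where it decreased by 1.9 (SE 0.507, edgeR adjusted p = 0.031). This rested on 1 to 8 reads per library in Δ133p53α1 and was lost without control replicate 1 or 3 or without Δ133p53α1 replicate 2, 3 or 4, with log2 fold changes of -1.84, -1.65, -1.8, -2.05 and -1.62.

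Of 21 purinergic receptors, 6 were tested and 0 were called, beside 7.17% of all tested genes called in at least 1 line. P2RY11 had the highest level, at a mean of 62.4 CPM over all libraries, but its exons are part of a read-through transcript with the neighbouring gene PPAN, so its level is uncertain. The adenosine receptor ADORA2B had a mean of 14.7 CPM, and its log2 fold change was -0.6 (SE 0.177, edgeR adjusted p = 0.0333) in Δ133p53β5 and -0.75 (SE 0.177, edgeR adjusted p = 0.0085) in Δ133p53β10, under the threshold on size. It was -0.58, -0.37 and -0.46 in Δ133p53α1, Δ133p53α2 and Δ133p53α8, with edgeR adjusted p of 0.0603 or higher. P2RY1, a receptor for ADP, had a mean of 14.6 CPM, and its log2 fold changes were between -0.61 in Δ133p53β10 and 0.32 in Δ133p53α8.

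Of 13 ectonucleotidases, 4 were tested and 0 were called, beside the same 7.17%. NT5E, which makes adenosine from AMP, was the most abundant gene of the 4 lists, at 405.0 ± 172.0 CPM in control and 214.0 ± 83.8 CPM in Δ133p53β10 (SD, n = 4), where its log2 fold change was -0.92 (SE 0.294, edgeR adjusted p = 0.0496). In Δ133p53α1 the log2 fold change was -0.94 (SE 0.295, edgeR adjusted p = 0.0669). In Δ133p53α2, Δ133p53α8 and Δ133p53β5 it was -0.37, -0.55 and -0.52. ENTPD1, which breaks down ATP and ADP, had a mean of 28.7 CPM, with log2 fold changes between -0.29 in Δ133p53β5 and 0.44 in Δ133p53α8. ENPP1, which makes AMP from ATP, had a mean of 7.4 CPM and was lower in Δ133p53β10, with a log2 fold change of -0.84 (SE 0.264, edgeR adjusted p = 0.0464), under the threshold on size. In the other lines the log2 fold change was between -0.63 in Δ133p53α1 and -0.25 in Δ133p53α2, with edgeR adjusted p of 0.146 or higher.

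Of 14 other taste transduction genes, 6 were tested and 1 was called, decreased, beside 4.4% of all tested genes. The highest levels were those of ITPR3, the calcium release channel of taste cells and many other cells, at a mean of 139.0 CPM, of GNB3 at 10.3 CPM and of TRPM4 at 8.02 CPM, and none of these 3 was called. The gene called was SCNN1A, a subunit of the epithelial sodium channel, named here after its values were seen, which decreased by 2.91 (SE 0.794, edgeR adjusted p = 0.0212) in Δ133p53β5 and had a log2 fold change of -2.53 (SE 0.773, edgeR adjusted p = 0.0404) in Δ133p53β10, where it was called as well. Control libraries ranged from 35 to 182 reads for this gene. Both calls were lost without control replicate 3, with log2 fold changes of -2.51 and -2.13. The call in Δ133p53β5 was also lost without Δ133p53β5 replicate 1, 2 or 3 (-2.54, -2.79 and -3.02), and the call in Δ133p53β10 without control replicate 1 (-2.31) or any 1 of the Δ133p53β10 libraries (-2.88 to -2.34).

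**Figure D4:**
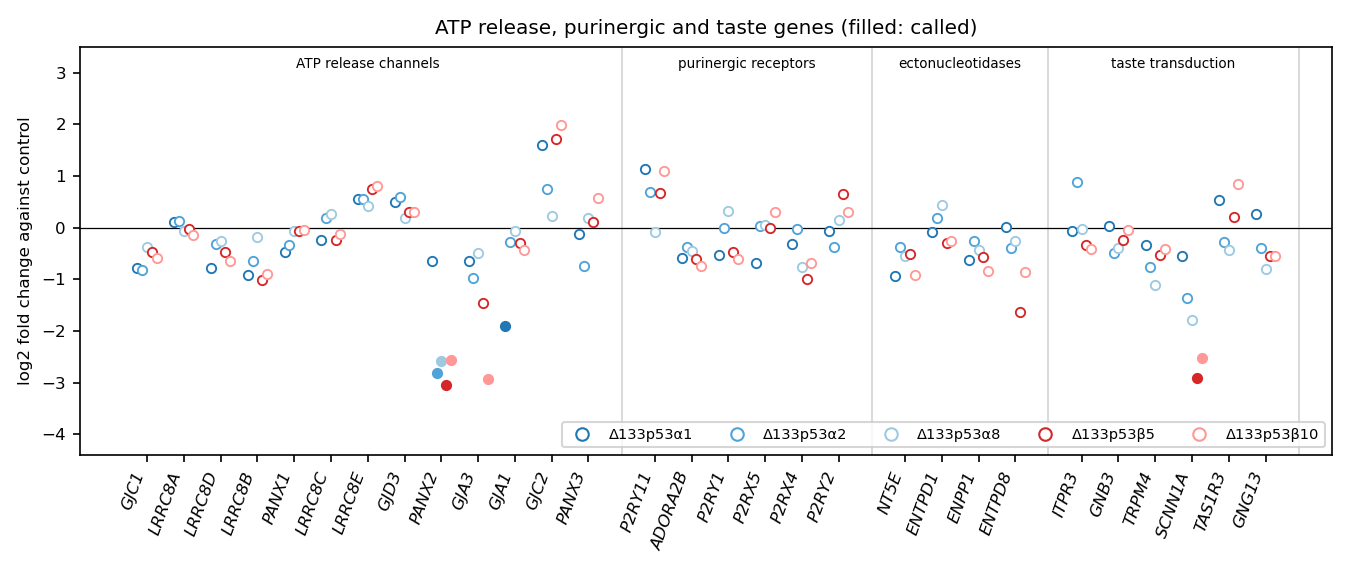
Log2 fold change against control (vertical axis) of the tested genes of ATP release channels, purinergic receptors, ectonucleotidases and taste transduction (horizontal axis, by falling mean level in each list), in the 5 lines. Filled circles are called genes and open circles are not called. PANX2 is filled in 4 lines, from -3.04 to -2.56, and GJA3, GJA1 and SCNN1A are the only other genes with a filled circle.

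Genes whose expression followed CALHM5 most closely were ranked by Pearson's r of log2 CPM over all 24 libraries, as a description in which the libraries share clones and controls. The 5 highest were LINC02577 (r = 0.908), ENSG00000275216 (r = 0.906), BASP1 (r = 0.9), a membrane-bound protein of growing axons, FGF1 (r = 0.886) and GDNF (r = 0.88), both growth factors, and CALHM4 was at rank 28 (r = 0.819). BASP1 was at 3.07 ± 1.84 CPM in control (SD, n = 4) and between 22.8 and 32.5 CPM on average in the lines, and GDNF was at 0.133 ± 0.0901 CPM in control and between 2.3 and 4.71 in the lines. For CALHM4 the 5 highest were PRPS1 (r = 0.926), OR7E19P (r = 0.91), PEA15 (r = 0.909), SALL3 (r = 0.908) and ANKRD1 (r = 0.907), and CALHM5 was at rank 50. No gene was in both lists of 5.

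Markers of other cell types and of processes in which CALHM genes are known were set beside these values. Their part in the results was not tested. Of 5 epithelial markers 2 were tested, and KRT8 was called increased in all 5 lines and KRT18 in Δ133p53α1, with a summed level of 875.0 to 1650.0 CPM in control and 1860.0 to 7730.0 CPM in the lines. The 7 trophoblast markers, listed because CALHM4 and CALHM5 are known from the placenta, had a summed level of 0.0 to 0.0768 CPM in control and at most 0.278 in the lines, with CSH1, PSG1 and HSD3B1 at 0 reads. Of 10 interferon response genes 6 were tested, and GBP1 was called increased in the 4 lines other than Δ133p53α1, with log2 fold changes of 1.54 to 2.39, while the summed level was 115.0 to 159.0 CPM in control and 77.4 to 141.0 in the lines. The haematopoietic and fibroblast lists each had 1 tested gene, CD68 and COL1A1, which were not called, and the summed levels were at most 3.05 and 2.5 CPM in any library.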

How the data were processed

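The authors sequenced strand-specific poly(A) RNA, used HISAT2 for alignment to GRCh38, and ran featureCounts with the exons of an Ensembl annotation to obtain 1 count per gene. The strand setting and the treatment of multi-mapped reads were not given in the sources used here. The deposited counts per gene were not normalized. They held 60564 rows, of which 1 had no name and 0 reads and was left out. Total counts were 21531599 to 25381731 per library. Reads carry no molecular identifiers, so floors cover counting error only. A gene targeted by the design is not reported here.

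Groups were taken from the labels, and 1 library from the column name. edgeR 4.0.16 in R 4.3.3 was used with TMM factors, filterByExpr (17990 genes) and 1 quasi-likelihood fit to all 6 groups, which left 18 residual degrees of freedom. P-values were adjusted by Benjamini-Hochberg over every tested gene, and 95% intervals use the t distribution at 18 degrees of freedom. Library sets were split by the sign of Spearman's rho (0.262 to 0.41, and -0.367 to -0.162). It was taken between exon length and the deviation of log2 CPM from the mean of each gene over all libraries. GENCODE (GRCh38) gave the gene positions, and RefSeq the promoters. The fit was tested on simulated data. The alternatives were DESeq2 1.42.0, limma 3.58.1 (voom), pairwise fits, RLE size factors, a 1.5-fold threshold, a replicate block, genes at 1 CPM or more on average, all genes without a filter, the library set as a term, the library in doubt moved or left out, and leaving out each library.

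The members, gene lists and tests were chosen with earlier results of these data known. Named genes were the 6 members, the 3 nearest tested genes on each side of each cluster and every called one, the genes of each list called in at least 3 lines in 1 direction or otherwise the 3 with the highest mean level, and the 5 genes with the highest r with CALHM5 and with CALHM4. Others are named as chosen after their values were seen.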

Additional observations from a re-analysis of the deposited data

Results flagged for a closer look

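CALHM4 in replicate 4 of Δ133p53α1 was far from the other libraries of its line. It had 2.12 CPM, compared with 5.37 to 5.97 CPM in the other 3, and the gap was 0.844 of the range of the line. This was 1 of 18 groups examined, and chance gives such a flag in about 1 group in 20.

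CALHM5 differed between the isoforms by 0.82 on the log2 scale and among the 5 lines by a range of 1.33, both given without a p because the gene was chosen with these differences known. GJA3 differed between the isoforms in the opposite direction, with a log2 difference of -1.49 (edgeR adjusted p = 0.000944), beside 5.43% of the tested genes that passed. It was named after its values were seen, and with 2 and 3 clones the isoform and the differences between clones cannot be told apart.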

How the results depend on the processing

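The 17 main results were recomputed under up to 11 alternative settings and with each of the 24 libraries left out. Of 586 alternative values, 530 kept their direction and their side of the threshold, or stayed within 1.5 times for a count, and no direction was reversed among called values. The 586 values include those of CALHM5 against control and between the lines, on which the family was chosen, so this share is no support for them. CALHM5 was called increased in all 5 lines under every alternative, which describes the fits only. Its difference between the isoforms was 0.81 to 0.93 under the other settings and 0.77 to 0.89 with a library left out, and its range among the lines was 1.17 to 1.54 with a library left out.

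The number of members called was 1 in place of 2 in Δ133p53α8 and 1 in place of 2 in Δ133p53β10 in pairwise fits, and 1 to 2 in Δ133p53α8 with a library left out. The CALHM4 difference between the isoforms passed in DESeq2 (0.98, adjusted p = 0.0443), in pairwise fits (0.99, edgeR adjusted p = 0.015) and with the library set as a term (1.11, edgeR adjusted p = 0.0262). It was 0.88 to 1.09 with a library left out, and its range among the lines was 1.61 to 1.95. Over its alternatives the adjusted p of the CALHM4 isoform difference was 0.015 to 0.192.

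Beside the chromosome 6 cluster 1 gene was called in place of 0 in DESeq2, without a filter, with the 1.5-fold threshold and with the library in doubt counted in Δ133p53β10 or left out. With a library left out the count was 0 to 1, and it was 1 in 22 of 24 fits. The count thus moved in 27 of 35 alternatives. The gene called was RWDD1 under the 1.5-fold threshold, KPNA5 in 1 fit with a library left out, and TRAPPC3L in the other 4 settings and in 21 fits with a library left out. TRAPPC3L was not tested in the main result. Beside the chromosome 10 cluster 2 genes were called in place of 1 in DESeq2 and with the 1.5-fold threshold, 0 in pairwise fits and with the replicate block, and 0 to 2 with a library left out. Of the ATP release channels 5 were called in place of 3 in DESeq2, 1 with a filter at a mean of 1 CPM, and 2 to 4 with a library left out. Of the purinergic receptors 1 was called in place of 0 with the 1.5-fold threshold and with the library set as a term. Of the ectonucleotidases 1 was called in place of 0 in DESeq2, without a filter and with the library set as a term, and 2 with the 1.5-fold threshold. Of the taste genes 0 to 1 were called with a library left out. Except where fewer or more genes were tested or the threshold differed, the cause was not tested.

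Libraries with the same replicate number did not deviate together (r from -0.886 to 0.893 over 60 pairs, median -0.0233), and 2 of 24 libraries correlated best with their own number. The replicate number was therefore not used for pairing. With the replicate block, CALHM5 differed between the isoforms by 0.83, and 2 of the ATP release channels and 0 of the genes beside the chromosome 10 cluster were called.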
